A study of Mus musculus with 4 samples.

Results

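The genes described here drive and carry out mitosis and cytokinesis. They are 45 named genes for mitotic cyclins and kinases, the spindle checkpoint, kinetochores, spindle motors and microtubule proteins, the contractile ring and mitotic chromosomes, and their members were every probe set whose single gene symbol in the platform annotation was one of these names. This gave 102 probe sets of 44 genes, of 18193 genes with such a probe set. Ccnb1 had none under its name and was not analysed here. This rule uses gene names and no value of the arrays.

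The study asked how macrophages form from bone marrow in culture during space flight. Marrow cells of 21 adult C57BL/6 mice, for which the labels name no mutation, were pooled, freed of red cells and cultured at 37 °C in glass barrels with macrophage colony-stimulating factor (M-CSF) at 1.5 µg/ml, the growth factor that makes marrow progenitors divide and become macrophages. The space flight group of 2 arrays flew on a space shuttle, and the ground control group of 2 arrays stayed on the ground on a parallel temperature and activation schedule. In both groups medium with M-CSF was added on culture day 6 and guanidinium lysed the cells on culture day 15, day 14 of the flight. Each array held RNA of 2 barrels combined, and all barrels came from 1 pool of marrow, so the replicates carry no spread between animals.

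Division genes are mostly silent in resting cells. Their transcripts build up as a cell leaves S phase and disappear after division, so in a mixed culture their level is read with the share of cells in late cell cycle. Progenitors of neutrophils and red cells divide briskly, and macrophages slow their division as they mature. In bulk samples, fewer dividing cells and less of a transcript per dividing cell cannot be told apart.

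Many of these genes share short promoter elements. One is the cell cycle genes homology region (CHR), spelled TTTGAA or, less often, TTTAAA, through which the DREAM complex holds the genes off in resting cells and B-Myb and FoxM1 complexes turn them on before mitosis. The other is the CCAAT box, bound by NF-Y. RefSeq promoters of build GRCm38.p6, from 250 bases before to 50 bases after a gene's start, were listed for 40 of the 45 genes, with 44 promoters in all; Aurkb, Ccna2, Foxm1, Kif20a and Tpx2 were not matched. TTTGAA, searched on both strands, was in 35 of 44 member promoters (79.5%), against 17.9% of all 32851 promoters of that length. TTTAAA, which reads the same on both strands, was in 10 of 44 (22.7%, against 13.2%), and 1 or the other spelling was in 38 (86.4%, against 27.6%). CCAAT on either strand was in 33 (75%, against 37.4%). A spelling of the CHR and a CCAAT box stood together in 31 (70.5%, against 10.7%). The motifs do not overlap each other in spelling, and a match is a description of letters, not of a bound site.

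The 150 bases just before the start are shown for 6 genes, 5′ to 3′ on the gene's strand, with both CHR spellings and the CCAAT box in capitals on whichever strand they lie (a TTTGAA on the other strand reads TTCAAA, and the CCAAT box reads ATTGG). Cdc20 (chr4:118437344-118437493, minus strand), Kif22 (chr7:127042421-127042570, minus strand) and Nusap1 (chr2:119618148-119618297, plus strand) were among the members with the largest positive differences. Hmmr (chr11:40733438-40733587, minus strand) had the largest negative difference among the measured members. Cdk1 (chr10:69352913-69353062, minus strand) and Plk1 (chr7:122159285-122159434, plus strand) are the central kinases of mitosis.
Cdc20: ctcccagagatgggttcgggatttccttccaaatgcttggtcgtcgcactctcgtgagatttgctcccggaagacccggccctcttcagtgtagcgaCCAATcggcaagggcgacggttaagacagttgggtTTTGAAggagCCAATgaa
Kif22: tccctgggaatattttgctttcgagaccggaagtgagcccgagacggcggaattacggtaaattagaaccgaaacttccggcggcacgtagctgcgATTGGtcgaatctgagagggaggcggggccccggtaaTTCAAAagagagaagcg
Nusap1: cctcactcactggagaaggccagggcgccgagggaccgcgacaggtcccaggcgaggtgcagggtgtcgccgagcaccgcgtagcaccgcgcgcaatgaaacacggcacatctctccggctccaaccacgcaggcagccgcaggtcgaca
Hmmr: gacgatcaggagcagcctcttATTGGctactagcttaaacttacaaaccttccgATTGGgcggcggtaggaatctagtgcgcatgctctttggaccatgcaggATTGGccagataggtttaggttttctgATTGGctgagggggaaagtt
Cdk1: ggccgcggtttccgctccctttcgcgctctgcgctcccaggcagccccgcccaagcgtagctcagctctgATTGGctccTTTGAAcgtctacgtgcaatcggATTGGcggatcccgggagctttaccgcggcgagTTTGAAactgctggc
Plk1: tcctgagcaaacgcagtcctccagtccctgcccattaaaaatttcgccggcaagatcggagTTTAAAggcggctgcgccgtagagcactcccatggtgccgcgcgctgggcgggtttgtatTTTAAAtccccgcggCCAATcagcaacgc
In the stretch before Cdc20 a TTTGAA begins 18 bases before the start, with CCAAT boxes 53 and 8 bases before it. The stretch before Hmmr holds 4 CCAAT boxes read on the other strand and no CHR spelling, and its TTTGAA begins at base 9 after the start. The stretch before Nusap1 holds neither motif. Of the 39 members with both a probe set and a listed promoter, the 33 with a CHR spelling had a median difference of 0.23 between space flight and ground control, from −1.05 to 1.29. The 6 without one had −0.37, from −1.44 to 1.32, and the ranges of the 2 sets overlapped. Of those 6, Nuf2, Bub1 and Melk were negative and too dim to be tested. Mad2l1, Nek2 and Nusap1 were positive and tested.

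Levels below are log2(intensity + 16) after quantile normalization, and a difference is the space flight mean less the ground control mean on this log2 scale, on which 1 unit is a 2-fold change and changes of dim genes are understated. Each gene is given by its brightest probe set, that with the highest mean over the 4 arrays. A gene is called measured where that mean reached 6.40, the median over all 45037 probe sets other than controls. This dim limit is a rank among probe sets, not a measured background, and a gene described as below it has its mean over the 4 arrays there, while single arrays may lie above. Genes were tested in limma over all 11141 measured genes, in a two-sided test, and passed at a Benjamini-Hochberg adjusted p under 0.05. The smallest two-sided p of an exact permutation test with 2 arrays a group is 0.333.

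The labels give each RNA pool an integrity number of 3, which is degraded. Space flight arrays 1 and 2 had 3′ to 5′ signal ratios of 4.09 and 15.2 for the Gapdh control, ground control arrays 1 and 2 had 4.13 and 3.33, and those of Actb ran from 2.30 to 4.91 and of the transferrin receptor from 3.47 to 7.84. Replicates of measured genes differed with an SD of 0.70 in space flight and 0.47 in ground control. The macrophage genes Csf1r, Cd68 and Adgre1 were far above the dim limit on all arrays, with 14.87 or more for Csf1r, 14.73 or more for Cd68 and 11.52 or more for Adgre1, and of the 14 macrophage markers found, C1qa, C1qc, Cd163 and Marco were not measured.

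No mitotic gene passed the test in either direction, where 0.0449% of measured genes passed as higher in space flight and 0.018% as lower. Of the 44 genes, 28 were measured (63.6%, against 61.2% of all genes), and their adjusted p ran from 0.147 to 0.986. At an unadjusted p under 0.05, 4 measured members were higher in space flight (Cdc20, Kif22, Nusap1 and Cdca8) and 1 was lower (Hmmr), beside 6.88% and 7.32% of all measured genes. Of the higher ones, Nusap1 had a ground control mean of 5.80, under the dim limit, and reached the test only through its space flight values. Of the 28 limma 95% intervals, 23 included 0, 21 included a difference of 1, which is 2-fold higher, and 7 included −1, which is 2-fold lower. For most of these genes neither no change nor a 2-fold rise could be set aside. Most intervals did not reach a 2-fold fall, but the filter on level shaped which genes were tested. Aspm, Bub1b and Nek2, like Nusap1, had a ground control mean under the dim limit, and Ncapg a space flight mean under it. Anln (−0.53) and Bub1 (−1.19) had a ground control mean above it but were not tested. Kif11 (0.92), with its space flight mean above it, was not tested either. These counts thus do not set a fall aside for the list.

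Over all 44 genes, with no filter on level, the median difference was 0.24, against 0.03 over all 18193 genes, and 30 differences were above 0 (68.2%, against 52.5% of all genes). Both space flight values lay above both ground control values for 11 genes (25%, against a background of 21.5% of all genes), namely Aspm, Bub1b, Bub3, Ccna2, Cdc20, Cdca8, Kif11, Kif22, Nek2, Nusap1 and Plk1. They lay below both for 3, Bub1, Hmmr and Nuf2 (6.82%, against 19.6%). Relative to the ground control mean, the members' median was 0.056 on space flight array 1 and 0.29 on space flight array 2, whose Gapdh ratio was 15.2. Without space flight array 2 the median was 0.056, and with the mean over all probe sets of a gene it was 0.070, with 7 genes above (15.9%, against 20.5% of all genes) and 3 below (6.82%, against 19.7%), so the share above was then under the background. When the arrays were brought to a common median in place of quantile normalization, all genes moved by −0.132 at their median, to −0.102. The members stood at 0.055, and 24 of them were above 0 (54.5%, against 42.7% of all genes). These counts describe the list, which was chosen with earlier results known.

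**Figure D1:**
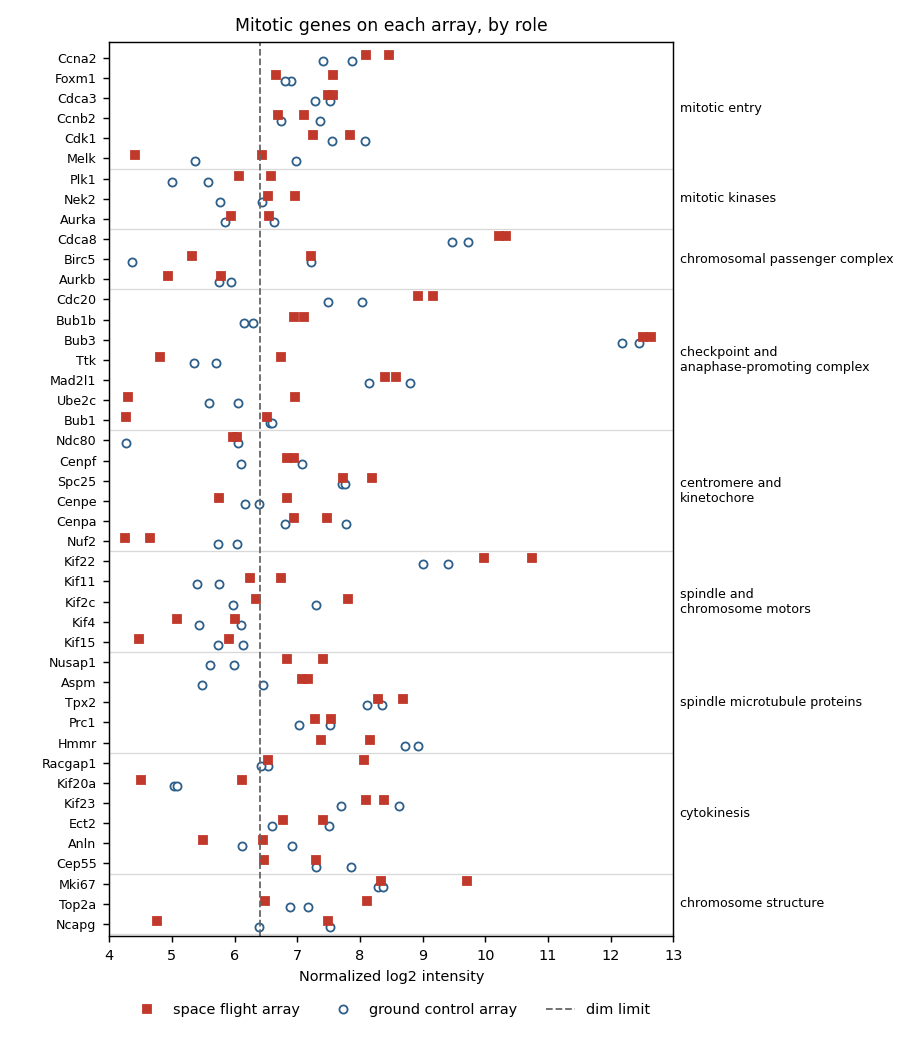
Normalized log2 intensity (x axis) of each of the 44 genes on the 4 arrays, grouped by role, with filled squares for the 2 space flight arrays, open circles for the 2 ground control arrays and a dashed line at the dim limit of 6.40. For 30 genes the groups overlap, and 16 genes have a mean left of the line.

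**Figure D2:**
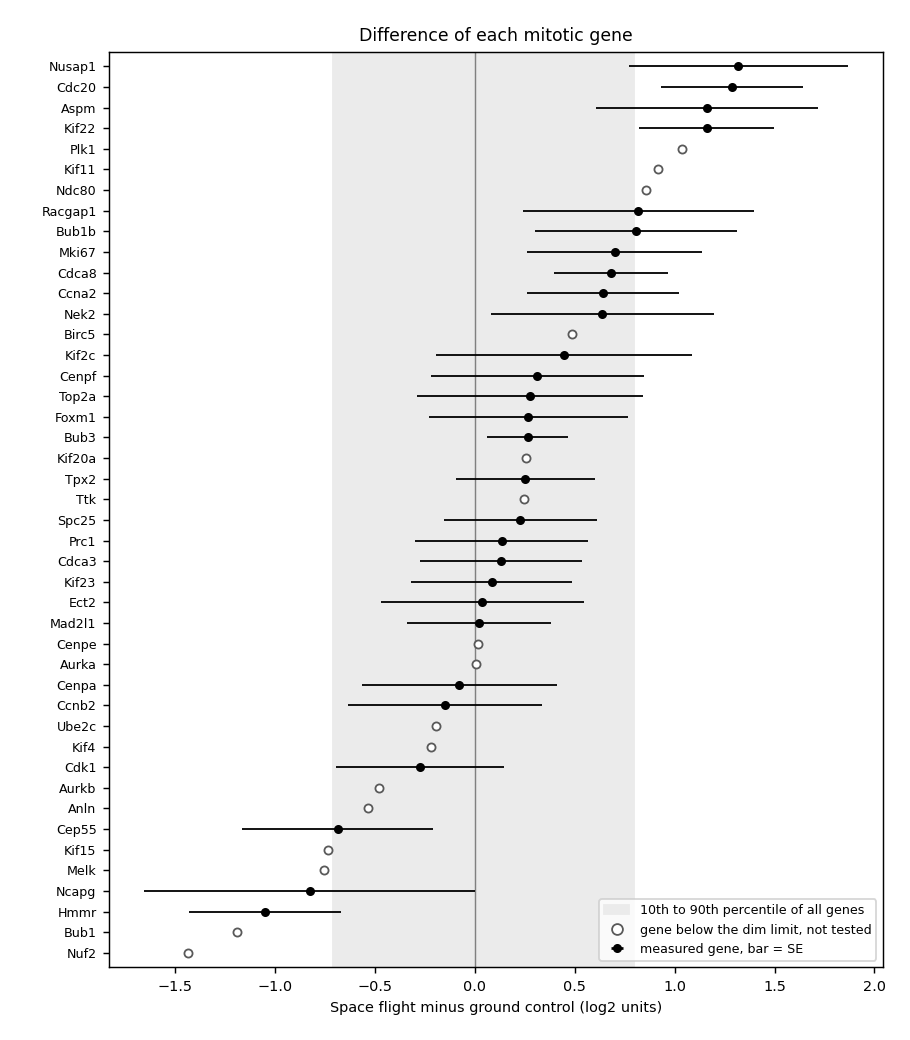
Space flight minus ground control (x axis, log2 units) for the 44 genes in order of difference, with filled points and SE bars for the 28 measured genes, open points for the 16 not tested, and a grey band from the 10th to the 90th percentile of all genes (−0.71 to 0.80). Of the 44 points, 9 lie above the band and 6 below it.

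Entry into mitosis rests on cyclin A and B bound to Cdk1 and on the factors that raise their transcripts. Ccna2, the cyclin of S phase and early mitosis, had 8.10 and 8.46 in space flight and 7.41 and 7.87 in ground control. Both space flight values were above both ground control values, with a difference of 0.64 ± 0.38 (SE, n = 2 arrays per group; limma adjusted p = 0.481), and the other Ccna2 probe set gave 0.41. Ccnb2, a B-type cyclin, had 7.11 and 6.69 in space flight and 6.73 and 7.36 in ground control, so the groups overlapped (−0.15 ± 0.49, SE). Cdk1, the kinase that these cyclins switch on, had 7.26 and 7.84 against 8.09 and 7.56, again overlapping (−0.28 ± 0.42, SE; 95% interval −1.20 to 0.65). Foxm1, the transcription factor that raises mitotic genes, had 6.67 and 7.56 against 6.90 and 6.80. Its ground control values lay between the 2 space flight values (0.27 ± 0.50, SE). Cdca3, which helps degrade the Cdk1 inhibitor Wee1, had 7.49 and 7.57 against 7.51 and 7.28 (0.13 ± 0.41, SE). Another Cdca3 probe set above the dim limit gave −0.72 ± 0.56 (SE), with both space flight values below both ground control values. Melk, a kinase of dividing progenitors, was below the dim limit, and its arrays ran from 4.41 to 6.98 (−0.76). By their brightest probe sets, 3 of the 6 entry genes had positive and 3 negative differences, with a median of −0.0094. On these probe sets Ccna2 alone had groups that did not overlap.

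Of the 3 kinases that carry mitosis forward, Nek2 alone was measured, just over the dim limit. Plk1, which acts at centrosomes, kinetochores and the midbody, had 6.07 and 6.57 in space flight and 5.57 and 5.01 in ground control. The groups did not overlap and the difference was 1.04, but its mean lay under the dim limit and it was not tested. Nek2, which separates the centrosomes, had 6.53 and 6.96 against 5.77 and 6.44 (0.64 ± 0.56, SE; limma adjusted p = 0.645), and its 3 dimmer probe sets gave 0.99, 0.38 and −0.80. Aurka, the kinase of the spindle poles, had 5.94 and 6.55 against 6.63 and 5.85, a difference of 0.0064 between overlapping groups, below the dim limit.

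The chromosomal passenger complex corrects faulty attachments and later directs cytokinesis. Its borealin subunit, Cdca8, had 10.33 and 10.21 in space flight and 9.46 and 9.72 in ground control, with no overlap (0.68 ± 0.28, SE; limma adjusted p = 0.314; 95% interval 0.051 to 1.31). A second probe set of Cdca8 gave 0.75 ± 0.39 (SE) and another, just above the dim limit, −0.12 ± 0.66 (SE). Both positive probe sets carry an s_at suffix, which marks those that may bind transcripts of other genes too. The negative one does not. Survivin, Birc5, had 5.32 and 7.23 in space flight and 4.36 and 7.22 in ground control. Its replicates stood further apart than its group means (0.49). Aurkb, the kinase of the complex, had 5.78 and 4.94 against 5.75 and 5.94 (−0.48), and its other probe set gave −0.89. Both probe sets of Aurkb and the single one of Birc5 were below the dim limit, so Cdca8 alone was tested here.

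The spindle checkpoint holds anaphase until every chromosome is attached, and the anaphase-promoting complex with its activator Cdc20 then destroys cyclin B and securin. Cdc20 had 9.16 and 8.92 in space flight and 7.49 and 8.03 in ground control. Its groups did not overlap, its difference of 1.29 ± 0.36 (SE) was 2.44-fold, and its adjusted p in limma, 0.147, was the lowest of the 28 measured members (95% interval 0.50 to 2.07). The x_at suffix of that probe set also marks it as one that may bind transcripts of other genes too. The other Cdc20 probe set above the dim limit had 7.52 and 7.15 in space flight and 7.93 and 7.68 in ground control, a difference of −0.47 ± 0.46 (SE). The 2 probe sets thus pointed in opposite directions. Bub1b, the checkpoint protein BubR1, had 7.11 and 6.95 against 6.15 and 6.29 (0.81 ± 0.51, SE; limma adjusted p = 0.507), and its 2 dimmer probe sets gave 0.43 and 1.28. Bub1, the partner kinase, had 4.27 and 6.51 against 6.56 and 6.60 (−1.19), with a mean over the 4 arrays below the dim limit, and the low value of space flight array 1 set that difference. Bub3, which carries both to the kinetochore and is also used outside mitosis, had 12.65 and 12.52 against 12.19 and 12.45 (0.26 ± 0.20, SE). That probe set carries an s_at suffix. The other Bub3 probe sets above the dim limit, without it, gave −0.16 ± 0.38 and −0.97 ± 0.77 (SE). Mad2l1, the checkpoint protein that captures Cdc20, had 8.40 and 8.58 against 8.14 and 8.79 (0.020 ± 0.36, SE). Ttk, the kinase that starts the checkpoint, had 4.81 and 6.74 against 5.70 and 5.36. Ube2c, the ubiquitin carrier of the anaphase-promoting complex, had 6.96 and 4.30 against 5.59 and 6.06. Both were below the dim limit, and in both the 2 space flight arrays enclosed the ground control values.

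Genes of the centromere and kinetochore, the plate that ties a chromosome to the spindle, showed no common direction. Spc25 and Nuf2 are subunits of the Ndc80 complex that grips microtubules. Spc25 had 8.19 and 7.73 in space flight and 7.71 and 7.76 in ground control (0.23 ± 0.38, SE), overlapping. Nuf2 had 4.25 and 4.65 against 5.74 and 6.04, the most negative difference of all members at −1.44, with no overlap, but all 4 values were below the dim limit. Ndc80 itself had 5.98 and 6.04 against 4.26 and 6.05 (0.86), where 1 low ground control value made the difference. Cenpa, the histone variant that marks the centromere, had 6.95 and 7.47 against 6.81 and 7.78 (−0.078 ± 0.49, SE). Cenpf, a large kinetochore protein of late cell cycle, had 6.95 and 6.84 against 6.09 and 7.07 (0.31 ± 0.53, SE). The kinetochore motor Cenpe stood at 0.013 below the dim limit.

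Among motors, Kif22, a chromosome-bound kinesin that pushes chromosomes to the spindle's middle, had 9.98 and 10.74 in space flight and 9.40 and 9.00 in ground control. Both space flight values were above both ground control values, by 1.16 ± 0.34 (SE), a 2.24-fold difference (limma adjusted p = 0.166; 95% interval 0.41 to 1.91). Its probe set carries an x_at suffix, as that of Cdc20 does, and its 2 dimmer probe sets gave 0.91 and 0.33. Kif11, the motor that pushes spindle poles apart, had 6.24 and 6.73 against 5.40 and 5.75, with no overlap (0.92). Its mean over the 4 arrays was below the dim limit and its space flight mean above it, and its other probe sets gave 1.95 and 0.32. Kif2c, which takes microtubules apart at centromeres, had 6.35 and 7.81 against 5.97 and 7.30 (0.44 ± 0.64, SE). Kif4, which condenses chromosomes and shapes the central spindle, and Kif15, which backs up Kif11, stood at −0.22 and −0.74 below the dim limit.

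The microtubule proteins of the spindle held the measured members with the largest positive and the largest negative difference. Nusap1, which bundles microtubules around chromosomes, had 6.83 and 7.41 in space flight and 5.99 and 5.62 in ground control. The groups did not overlap (1.32 ± 0.55, SE; limma adjusted p = 0.314), and a dimmer probe set gave −0.47. Aspm, which focuses spindle poles, had 7.18 and 7.08 against 5.49 and 6.45 (1.16 ± 0.56, SE; limma adjusted p = 0.378), and its 4 dimmer probe sets gave 1.27, 0.090, 0.089 and −0.084. Hmmr, a spindle assembly protein and hyaluronan receptor, had 7.38 and 8.16 against 8.72 and 8.92. Both space flight values were below both ground control values (−1.05 ± 0.38, SE; limma adjusted p = 0.246; 95% interval −1.89 to −0.21). Its 2 other probe sets above the dim limit gave −0.72 and −0.13, and 2 below it gave −1.22 and 0.61. Tpx2, which activates Aurka on the spindle, had 8.28 and 8.68 against 8.11 and 8.36 (0.25 ± 0.35, SE). Prc1, which bundles the central spindle, had 7.53 and 7.28 against 7.52 and 7.03 (0.13 ± 0.43, SE). The measured members Aspm, Bub1b, Nek2 and Nusap1 had a ground control mean under the dim limit and were tested because of their space flight values.

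Genes of cytokinesis, the splitting of the daughter cells, stood on both sides of 0 with no member's groups apart. Racgap1 and Kif23 form the centralspindlin complex. Racgap1 had 6.53 and 8.07 in space flight and 6.54 and 6.43 in ground control, so that space flight array 2 alone was high (0.82 ± 0.58, SE; limma adjusted p = 0.561). Kif23 had 8.09 and 8.38 against 8.62 and 7.69 (0.084 ± 0.40, SE), between the ground control values. Ect2, the exchange factor that switches on RhoA for the contractile ring, had 7.40 and 6.77 against 7.50 and 6.59 (0.037 ± 0.51, SE). Cep55, needed for the final cut, had 7.30 and 6.47 against 7.29 and 7.85 (−0.69 ± 0.48, SE; limma adjusted p = 0.554). The ring scaffold Anln and the midzone motor Kif20a stood at −0.53 and 0.26 below the dim limit.

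Of the chromosome genes, Mki67, the proliferation marker that coats mitotic chromosomes, had 8.34 and 9.71 in space flight and 8.28 and 8.37 in ground control. Space flight array 1 lay within the ground control range and array 2 far above it (0.70 ± 0.44, SE; limma adjusted p = 0.506). Top2a, which untangles sister DNA, had 6.48 and 8.11 against 6.88 and 7.17, with space flight values on either side of the ground control values (0.28 ± 0.57, SE). Ncapg, a condensin subunit, had 4.76 and 7.50 against 7.52 and 6.39 (−0.83 ± 0.83, SE; limma adjusted p = 0.694). Its space flight mean was under the dim limit, so it reached the test only through its ground control values.

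The 2 space flight arrays disagreed for many of these genes. They stood over 1 log2 unit apart for 13 of the 44 genes (29.5%, against 21.2% of all genes), and the ground control arrays for 5 (11.4%, against 13.7%). A fit that drops 1 array gives the single array of that group the spread of the other group. Without space flight array 1, 3 members passed as higher, namely Kif22 (1.54; limma adjusted p = 0.00278), Mki67 (1.39; adjusted p = 0.0104) and Racgap1 (1.59; adjusted p = 0.0394). Without space flight array 2, Cdc20 passed as higher (1.41; limma adjusted p = 0.0228) and Hmmr (−1.44; adjusted p = 0.0156) and Ncapg (−2.20; adjusted p = 0.0361) as lower. Without either ground control array none passed. Without space flight array 1 the 28 measured members thus had 10.7% higher and 0 lower, beside 4.22% and 5.48% of all measured genes, and without space flight array 2 they had 3.57% and 7.14%, beside 3.07% and 3.58%. These 2 fits called 1080 and 741 genes of the whole table, against 7 with all arrays.

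Probe sets of 1 gene often disagreed as well. Of the 30 members with more than 1 probe set, 18 had differences of both signs. Where more than 1 reached the dim limit, which was so for 7 genes, the signs differed for Bub3, Cdc20, Cdca3 and Cdca8 and did not for Ccna2, Hmmr and Tpx2. Of the 102 probe sets, 38 reached the dim limit, which is the median over all 45037 probe sets other than controls. Without probe sets of the classes that can bind several transcripts, 43 members had a value, and the median difference was 0.084, with 7 genes above (16.3%, against 20.8% of all genes) and 4 below (9.3%, against 19.7%) without overlap.

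**Figure D3:**
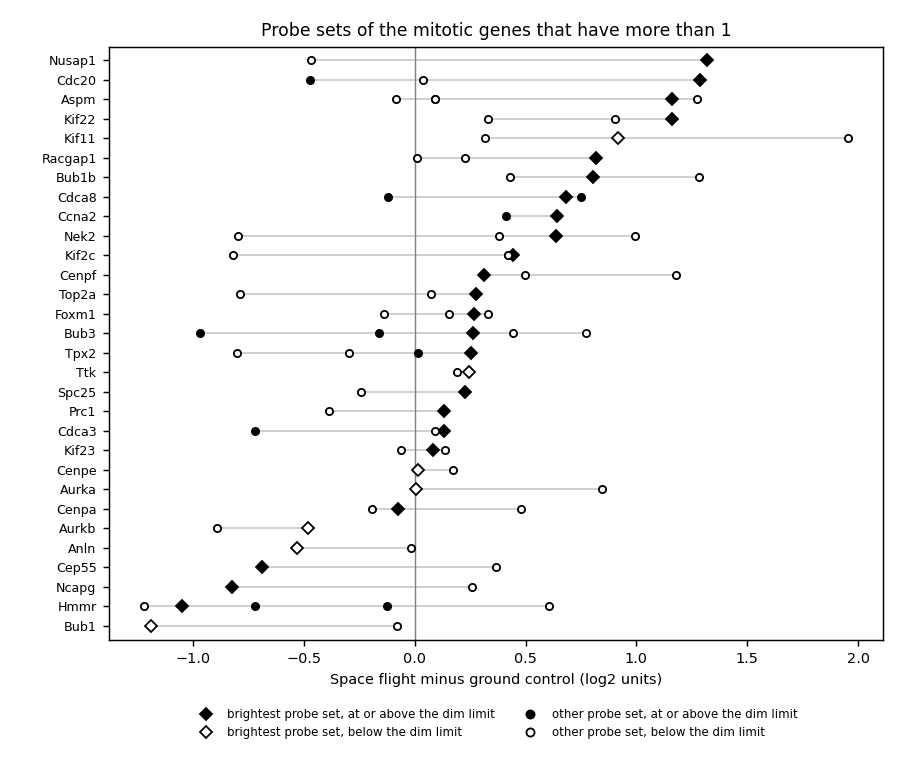
Space flight minus ground control (x axis, log2 units) of each probe set of the 30 genes with more than 1, with diamonds for the brightest probe set, circles for the others, and filled symbols for means at or above the dim limit. The filled symbols of Cdc20 lie at 1.29 and −0.47, on either side of 0.

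The wider machinery of mitosis was read from 136 other genes of entry and exit, the anaphase-promoting complex, centromeres, the spindle, cytokinesis, condensin and cohesin. Of these, 134 had a probe set and 104 were measured. In limma's test 0 passed in either direction, beside 0.0449% higher and 0.018% lower of all measured genes. At an unadjusted p under 0.05, 7 were higher and 6 lower (background 6.88% and 7.32% of measured genes). Their median difference was 0.064, against 0.03 over all genes, and groups were apart upwards for 30 (22.4%, against 21.5% of all genes) and downwards for 25 (18.7%, against 19.6%), both near the background. The 5 with the largest moderated statistics follow. Cks2, a small subunit of Cdk1 complexes, had 11.50 and 11.35 in space flight and 10.04 and 10.21 in ground control (1.30 ± 0.26, SE; limma adjusted p = 0.0910). Both values of space flight were above both of ground control, and a second Cks2 probe set, also above the dim limit, gave 1.08. Stmn1, which destabilises microtubules and is turned off for mitosis by phosphorylation, had 11.89 and 11.36 against 9.57 and 10.41 (1.64 ± 0.33, SE; limma adjusted p = 0.0910), and a dimmer probe set gave 2.37. Ube2s, which lengthens ubiquitin chains for the anaphase-promoting complex, had 10.02 and 9.97 against 8.65 and 8.72 (1.31 ± 0.29, SE; limma adjusted p = 0.104), with a dimmer probe set at 1.04. These 3 genes had non-overlapping groups and probe sets of 1 sign. As they were picked by their statistics on these same arrays, the lack of overlap is no separate support. The brightest probe sets of Stmn1 and Ube2s and the second of Cks2 carry an s_at suffix. The dimmer probe sets of Stmn1 and Ube2s were below the dim limit. Anapc11, the catalytic ring subunit of that complex, stood at 0.90 ± 0.30 (SE), with other probe sets at 0.33 and −0.57. Cenpc1, the centromere scaffold, stood at −1.13 ± 0.37 (SE; limma adjusted p = 0.205). Without space flight array 1, 6 of the 104 measured genes passed as higher (5.77%, against 4.22% of all measured genes) and 1 as lower (0.962%, against 5.48%). Without space flight array 2, 5 passed in each direction (4.81%, against 3.07% higher and 3.58% lower).

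**Figure D4:**
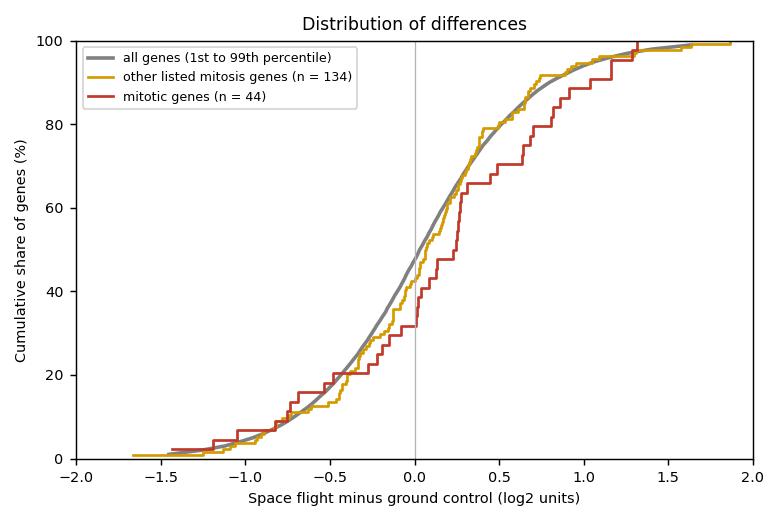
Cumulative share of genes (y axis, percent) against space flight minus ground control (x axis, log2 units) for the 44 mitotic genes, 134 other listed mitosis genes and all 18193 genes. The medians are 0.24, 0.064 and 0.03, and the curves of the mitotic genes and all genes cross, as 6 mitotic genes (13.6%) lie below the 10th percentile of all genes and 9 (20.5%) above the 90th.

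Markers of marrow cell types were read on the same arrays, with no test made of the lists. A sum given below is the log2 of a list's levels added on the linear scale. It rests mostly on the brightest markers of the list. Beside the counts below, both space flight values lay above both ground control values for 21.5% of all genes. They lay below both for 19.6%. Of 10 neutrophil precursor markers with a probe set, 9 had both space flight values above both ground control values, and the sums of the list were 14.78 and 15.34 in space flight and 13.26 and 13.49 in ground control. Of 11 erythroid markers, 8 did so, with sums of 13.72 and 14.04 against 12.93 and 13.20; Epb42 and Rhag were not measured. Of 14 macrophage markers, 4 lay above and 6 below, with sums of 16.82 and 16.72 against 17.00 and 17.04. Of 9 stem and progenitor markers, 3 lay above and 0 below, with sums of 9.78 and 10.30 against 9.71 and 9.46, and Flt3, Hlf, Mecom and Mycn were not measured. The counts above and below were 4 and 0 of 7 megakaryocyte and platelet markers, 2 and 2 of 6 mast cell and basophil markers, 3 and 0 of 8 B cell markers, 1 and 3 of 8 T and NK cell markers, 2 and 2 of 10 stromal markers and 2 and 1 of 6 endothelial markers. Of these, 6 megakaryocyte and platelet, 2 mast cell and basophil and 3 B cell markers were measured. So were 2 T and NK cell, 8 stromal and 2 endothelial markers. The endothelial markers with groups apart, Cdh5, Pecam1 and Tek, were all below the dim limit. The part of the listed cell types in the values of the mitotic genes was not tested.

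The mean of the 28 measured members was 7.69 and 8.09 on space flight arrays 1 and 2 and 7.51 and 7.66 on ground control arrays 1 and 2. The 5 other measured genes most like that mean, by Pearson correlation over the 4 arrays, were Ap3s2, Trir, Dele1, Fcgrt and Rala, each at 0.9995 or more. With 4 arrays such values are common, as 508 genes exceeded 0.95.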

How the data were processed

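Transcripts of 4 RNA pools were measured on Affymetrix mouse arrays after 2 rounds of amplification, per the labels' protocols. The deposited table holds 1 linear intensity per probe set and array; the authors used GCOS, per the submitters' processing notes, while the sources used here do not name the summarising algorithm or the genome build. With 2% trimmed from each end, the deposited intensity values of each array averaged 500.004. Array medians differed by up to 0.385 on the log2 scale, so log2(intensity + 16) was quantile normalized over 45037 probe sets. Of these, 34945 had 1 symbol, 932 several and 9160 none.

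The groups were compared in limma 3.58.1 under R 4.3.3 (lmFit, eBayes with an intensity trend; 10.4 moderated degrees of freedom), and the procedure was tested on simulated data with variances drawn from the fitted prior. An earlier simulation, with each gene's variance set to its posterior value, gave more false calls than the limit set for it and was replaced. The later one follows the model that limma assumes, so it checks the procedure, not the rate of false calls on these arrays. If real variances depart from that prior, the background counts of genes passed may hold more false calls than the threshold allows. P-values cover spread between culture pools and arrays. The number of arrays limits the precision, and depth has no meaning here.

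Members and gene lists were chosen with earlier results of these data known. Every member is named. Values on each array were set to be given for the 6 highest and 6 lowest measured members and 14 members listed by name (among them Ccnb1), and are given for most others too. Alternatives covered scaling, pseudocount, filter, choice of probe set, variance model, the replicate number as a block and leaving out each array.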

Additional observations from a re-analysis of the deposited data

How the results depend on the processing

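With all 4 arrays, 0 mitotic genes and 0 of the other mitosis genes passed limma's test under the values as deposited, 1 median, cyclic loess, both pseudocounts, no filter, the filter at the 75th percentile (4 members left), mean probe sets, no s_at or x_at probe sets, no intensity trend and the robust trend. Of all genes tested, 0 passed in either direction with 1 median, no filter, mean probe sets and no intensity trend. Under the other settings the largest shares were 0.231% higher and 0.173% lower, with the filter at the 75th percentile. With so few calls in the whole table, these counts of 0 do not set the members apart. The labels give the RNA pools letters, 1 of them used in both groups, and do not tie letters to replicate numbers 1 and 2, so the numbers were not taken as pairs (correlation of same-numbered deviations 0.057 over measured genes). With the replicate block, which left 1 residual degree of freedom, 1 mitotic gene (Kif22, limma adjusted p = 0.0442) and 3 of the other mitosis genes passed as higher, among 220 higher and 213 lower genes overall (1.97% and 1.91%). Leaving out each array in turn gave 0 to 3 mitotic genes called higher and 0 to 2 lower, and 0 to 6 and 0 to 5 of the other mitosis genes, beside 0.0539% to 4.22% and 0.00898% to 5.48% of all measured genes. It gave 1 to 8 mitotic genes higher (3.57% to 28.6%) and 0 to 2 lower (0 to 7.14%) at an unadjusted p under 0.05, beside 3.63% to 12.1% and 3.04% to 12.9% of all measured genes, 15 to 21 with groups apart upwards and 9 to 13 downwards (34.1% to 40.9% and 31% to 36.2% of all genes), and a median difference of 0.056 to 0.287.

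At an unadjusted p under 0.05, 4 of 28 members were higher and 1 lower with the settings of the report. There were 2 lower of 44 with no filter (4.55%, against 5.31% of all genes tested), and 2 higher and 0 lower of 4 with the filter at the 75th percentile (8.22% and 9.67% of all genes tested). With mean probe sets there were 0 and 0 of 15 (6.21% and 6.77% of all), and with no s_at or x_at probe sets 1 higher of 26 (3.85%, against 6.21%). With values as deposited there were 5 higher and 1 lower of 27 (18.5% and 3.7%, against 6.84% and 7.13%). With no intensity trend there were 6 higher and 1 lower of 28 (21.4% and 3.57%, against 6.36% and 5.74%). Groups apart upwards numbered 7 with mean probe sets (15.9%, against 20.5% of all genes) and 7 with no s_at or x_at probe sets (16.3%, against 20.8%). Both shares are under the background, where the 11 of the report (25%) are over it (21.5%). Also over it were the 15 with values as deposited (34.1%, against 24.2%) and the 13 under cyclic loess (29.5%, against 21.8%). So were the 10 with 1 median (22.7%, against 15.3%). The median difference was 0.0549 with each array shifted to 1 median and 0.070 with mean probe sets. The median stayed above 0 under each alternative run, and above the median of all genes by 0.0423 (without space flight array 2) to 0.246.

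Differences of 11 named members changed sign, among them some far from 0. Cdc20 went from 1.29 to −0.473 with no s_at or x_at probe sets, and with 1 array left out Ncapg went from −0.826 to as much as 0.542 and Birc5 from 0.488 to as little as −0.943. Aurka had −0.0299 under cyclic loess, −0.0189 with 1 median and −0.000389 with pseudocount 64. Ccnb2 had 0.0478 and Cenpa 0.0347 with values as deposited, Cenpa 0.0703 and Top2a −0.147 with mean probe sets, Ube2c 0.040 with pseudocount 64, and Bub3 −0.16 with no s_at or x_at probe sets. With each array left out in turn, the difference ran from −0.379 to 0.392 for Aurka, −0.943 to 1.92 for Birc5, −0.463 to 0.166 for Ccnb2, −0.566 to 0.0154 for Cdk1, −0.563 to 0.408 for Cenpa, −0.181 to 0.714 for Foxm1, −2.20 to 0.542 for Ncapg, −0.537 to 1.09 for Top2a and −1.52 to 1.14 for Ube2c. The cause was not tested. Signal close to the dim limit and 2 arrays per group limit what can be seen.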
